A study of Mus musculus with 11 samples.

Results

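Intergenic regions between 1 and 10 kb from a transcript start numbered 11444 among the 94963 accessible regions of the list (12.1%, 95% Wilson interval 11.8% to 12.3%), and they made up 36.2% of the 31580 intergenic regions that lay more than 1 kb from any start. A region was taken into this set when it overlapped no gene of any type in GENCODE vM21 (mouse genome build mm10) and when the distance from its nearer edge to the closest annotated transcript start was above 1 kb and at most 10 kb. They are named proximal intergenic regions here. The regions came from ATAC-seq, in which the Tn5 transposase cuts accessible DNA and adds sequencing adapters, on 11 cultures of MPC2, a single clone of conditionally immortalised mouse mesenchymal progenitor cells, with no other genetic change given in the labels. The cultures were undifferentiated mesenchymal stem cells (MSCs) with vehicle (DMSO, 3 cultures) or FG-4592 (3 cultures), and osteocytes differentiated for 3 weeks with vehicle (2 cultures) or FG-4592 (3 cultures). FG-4592 (Roxadustat), which blocks the HIF prolyl hydroxylases and so mimics hypoxia, was given at 50 uM for 48 hours. The design asked whether mimicked hypoxia changes chromatin accessibility in MSCs and osteocytes. The list merged the peaks of all cultures and held a single value per region, which is taken to be its mean log2 CPM (Tn5 cuts in the region, scaled to library size) over the cultures and is named the level. From this list differences between groups could not be measured, no value below has a replicate error, and the depth of each culture was unknown. The study itself listed regions that differed between groups, and those lists are not used here. All intervals are 95% intervals that cover counting error only.

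Chromatin that is open outside genes but near transcript starts holds upstream promoters, enhancers and insulators. Enhancers are bound by transcription factors that recognise short DNA motifs, and in mesenchymal cells these include AP-1 (Fos and Jun dimers), RUNX and TEAD proteins. HIF proteins bind the hypoxia response element (HRE), whose core is ACGTG or GCGTG, at the promoters and enhancers of genes for glycolysis, angiogenesis, matrix modification and iron handling. CTCF binds insulators and the anchors of chromatin loops.

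The central 300 bp of 6 proximal intergenic regions show what these sequences look like. They were taken from the 10 regions that the rule for named regions picked for holding an AP-1 site (TGAGTCA or its complement TGACTCA) or an HRE core in their central 200 bp, and these 6 were kept after their values were seen, for the roles of their genes. Sequences are mm10, plus strand, 5′ to 3′, and capitals mark every AP-1 site and HRE core on either strand. The CpG-rich Nr4a3 sequence, upstream of an orphan nuclear receptor gene, is chr4:48043098-48043397. The sequence for Sp7, the osterix gene, is chr15:102377321-102377620. It is the centre of a region whose nearer edge lay 9372 bp upstream of Sp7, so the sequence itself lies further out. That upstream of Bnip3, a HIF target that encodes a mitophagy receptor, is chr7:138919372-138919671 and holds 4 HRE cores. Hmox1, heme oxygenase 1, is represented by chr8:75089598-75089897 and Fth1, the ferritin heavy chain, by chr19:9978545-9978844, each with 1 AP-1 site. Col1a1, the alpha 1 chain of type I collagen, is represented by chr11:94933638-94933937, with 3 HRE cores side by side.
Nr4a3: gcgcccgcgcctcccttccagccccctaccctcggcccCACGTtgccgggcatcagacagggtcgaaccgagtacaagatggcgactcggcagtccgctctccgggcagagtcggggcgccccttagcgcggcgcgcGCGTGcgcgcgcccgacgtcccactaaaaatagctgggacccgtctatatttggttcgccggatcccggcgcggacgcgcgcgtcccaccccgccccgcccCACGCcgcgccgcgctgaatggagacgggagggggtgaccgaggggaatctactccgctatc
Sp7: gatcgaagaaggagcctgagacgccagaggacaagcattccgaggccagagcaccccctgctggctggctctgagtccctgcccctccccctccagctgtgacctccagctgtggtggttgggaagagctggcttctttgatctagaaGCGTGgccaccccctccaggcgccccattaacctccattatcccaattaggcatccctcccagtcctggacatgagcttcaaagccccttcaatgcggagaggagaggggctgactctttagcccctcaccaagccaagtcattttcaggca
Bnip3: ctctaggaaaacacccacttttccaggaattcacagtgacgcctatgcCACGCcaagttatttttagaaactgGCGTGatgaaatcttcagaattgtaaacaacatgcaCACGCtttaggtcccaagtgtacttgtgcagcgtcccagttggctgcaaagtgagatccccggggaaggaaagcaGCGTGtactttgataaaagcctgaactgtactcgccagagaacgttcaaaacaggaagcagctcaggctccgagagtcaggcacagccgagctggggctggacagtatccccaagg
Hmox1: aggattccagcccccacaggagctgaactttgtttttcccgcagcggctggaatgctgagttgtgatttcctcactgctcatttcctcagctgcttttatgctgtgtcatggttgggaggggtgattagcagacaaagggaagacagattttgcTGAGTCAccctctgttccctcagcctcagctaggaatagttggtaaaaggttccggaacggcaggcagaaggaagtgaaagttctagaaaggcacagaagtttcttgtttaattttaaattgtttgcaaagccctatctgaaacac
Fth1: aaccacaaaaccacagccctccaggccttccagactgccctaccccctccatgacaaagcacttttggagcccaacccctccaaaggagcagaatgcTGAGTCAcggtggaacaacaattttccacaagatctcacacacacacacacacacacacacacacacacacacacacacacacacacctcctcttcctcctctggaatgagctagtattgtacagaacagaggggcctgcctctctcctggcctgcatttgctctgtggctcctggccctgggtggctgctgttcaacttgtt
Col1a1: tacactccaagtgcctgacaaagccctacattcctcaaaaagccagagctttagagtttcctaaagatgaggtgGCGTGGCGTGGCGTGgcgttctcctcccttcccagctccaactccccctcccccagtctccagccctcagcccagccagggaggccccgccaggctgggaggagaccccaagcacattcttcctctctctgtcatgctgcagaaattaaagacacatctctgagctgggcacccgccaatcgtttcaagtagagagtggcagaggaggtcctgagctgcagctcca

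Proximal intergenic regions had a median level of 1.98 log2 CPM. The quartiles were 1.20 and 2.93, the lowest value -0.69 and the highest 7.15. Promoter regions, within 1 kb of a start, had a median of 3.89, intron regions of 1.89, exon regions of 1.98, intergenic regions 10 to 100 kb away of 1.83 and those beyond 100 kb of 1.52. Their median width was 408 bp, close to 405 bp in introns and 410 bp at 10 to 100 kb, and well under the 867 bp of promoter regions. Since a wider region collects more cuts, levels were also divided by width. On this scale, the level per kb, proximal intergenic regions had a median of 3.23 log2 CPM per kb against 3.16 in introns, 3.11 at 10 to 100 kb, 2.93 beyond 100 kb and 4.10 at promoters. The order of the intergenic and intron classes was the same at equal width. Among regions of 400 to 500 bp, the median level was 2.04 in proximal intergenic regions, 1.94 at 10 to 100 kb, 1.99 in introns and 2.07 at promoters, while among regions of 1000 bp and more it was 4.30, 4.13, 4.16 and 5.35. Against promoters the order depended on width. Narrow regions were level with them, at 0.91 against 0.93 for 200 to 300 bp and 1.61 against 1.60 for 300 to 400 bp, and the gap opened at 700 to 1000 bp, with 3.35 against 4.05. The medians of the non-promoter classes differed by far less than the quartiles within each class.

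**Figure D1:**
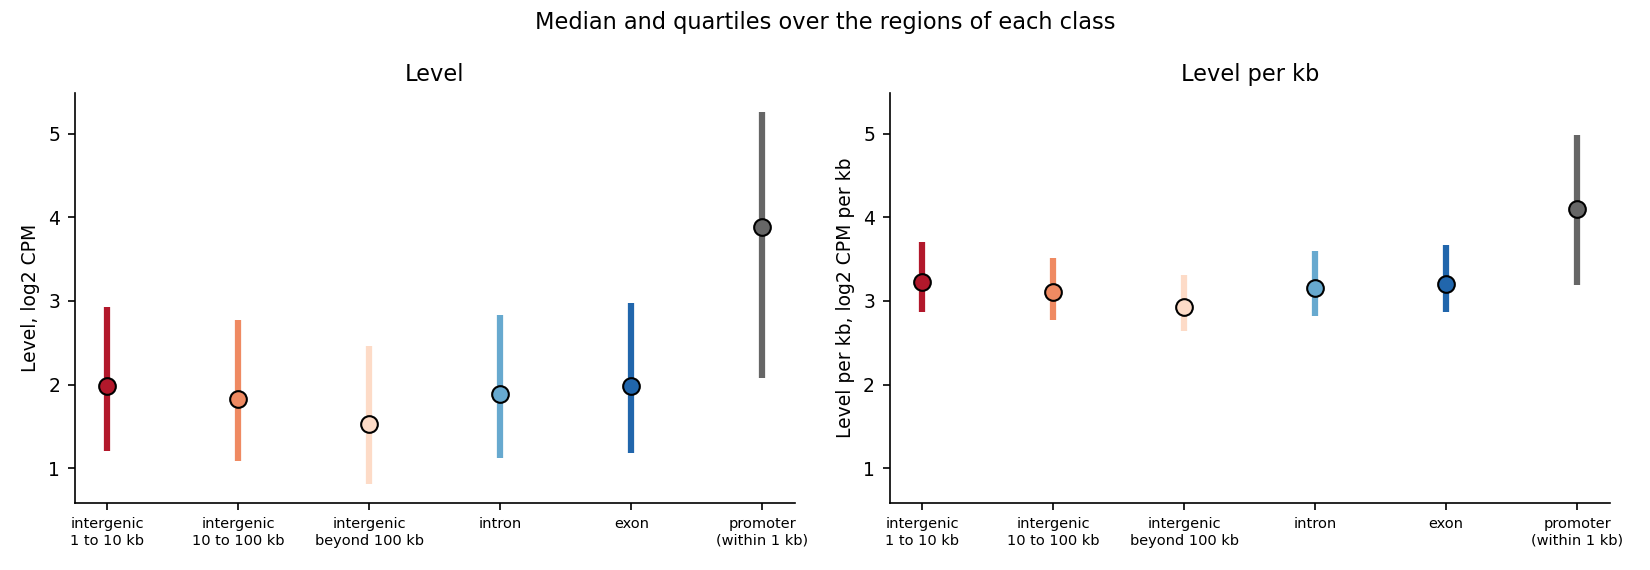
Median (points) and quartiles (bars) of the level in log2 CPM (left) and of the level per kb (right) over the regions of each class. Proximal intergenic regions (1 to 10 kb) sit at medians of 1.98 and 3.23, near introns and exons, and promoter regions stand above all others at 3.89 and 4.10.

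Few of these regions were strong. Of the 11444, 276 (2.41%) reached 5 log2 CPM against 1.74% at 10 to 100 kb, and 368 (3.22%) were among the top 10% of levels in the whole list, which began at 4.80 log2 CPM, against 35.2% of promoter regions. CpG-rich sequence was rare: 167 regions (1.46%) had a GC content of at least 55% and an observed over expected CpG ratio of at least 0.6. These had a median level of 3.08 and a median level per kb of 3.88, against 1.97 and 3.22 in the remaining 11277. Chromosome 16 held 621 proximal intergenic regions with a median level of 1.69, the lowest of any chromosome, and the X chromosome held 178 with a median of 1.71.

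The regions next to the limits of the rule had similar levels. Intergenic regions 900 to 1000 bp from a start, which the rule leaves out, had a median level of 2.07 (159 regions), and those 1000 to 1100 bp away, which it takes in, 1.93 (140 regions). At the outer limit the medians were 1.85 between 9 and 10 kb (1037 regions) and 1.95 between 10 and 11 kb (951 regions).

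The list had a sharp step at 5 kb around its strongest regions. Around each 1000 regions of the top 10%, 21.6 proximal intergenic regions had their midpoint 4 to 5 kb away (interval 18.7 to 24.8) and 40.6 had it 5 to 6 kb away (36.7 to 44.9). The counts were flat on either side of the step, from 19.4 to 21.6 per kb of distance between 1 and 5 kb and from 40.6 to 48.1 between 5 and 10 kb. Around the lowest 25% of regions the same counts were 13.4 (11.9 to 14.9) and 18.5 (16.8 to 20.3), so a smaller rise was present there as well. Intron regions had the step too, with 33.4 at 4 to 5 kb and 61.8 at 5 to 6 kb around the top 10%. Weak regions were scarce inside 5 kb. Among proximal intergenic regions below the top 10%, 6 of the 678 that lay 1 to 5 kb from a region of the top 10% had a level below 1 log2 CPM (0.885%), against 265 of the 1725 that lay 5 to 10 kb away (15.4%). Their median level was 2.77 (quartiles 2.15 and 3.52) inside and 2.07 (1.30 and 2.91) outside, and their median level per kb was 4.26 and 3.27. What made the step was not tested.

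**Figure D2:**
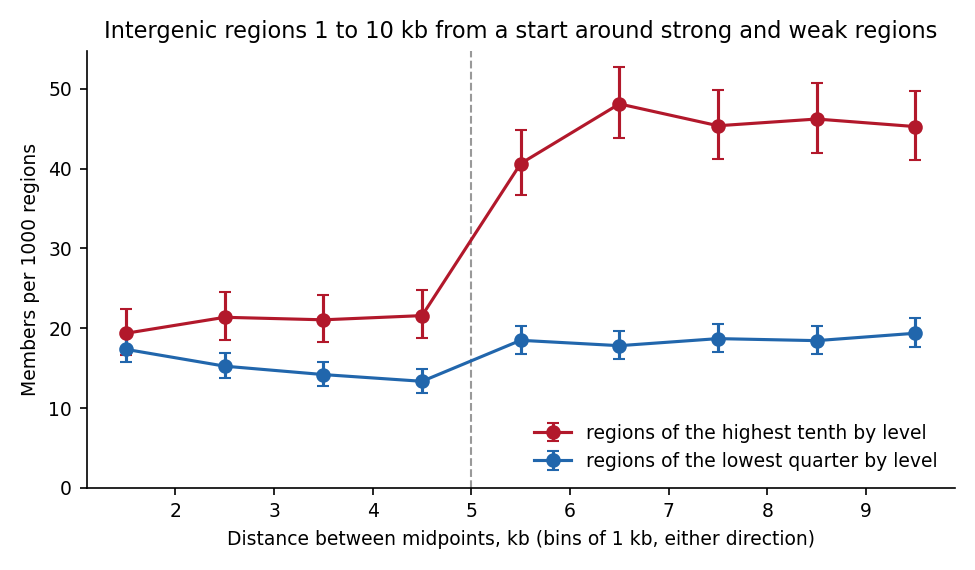
Proximal intergenic regions (members) per 1000 regions of the top 10% (red) and of the lowest 25% (blue) by level, in bins of 1 kb of the distance between midpoints, with exact Poisson intervals and a dashed line at 5 kb. The red counts go from 21.6 in the last bin before the line to 40.6 in the first bin after it, the blue ones from 13.4 to 18.5.

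More regions lay upstream of their nearest start than downstream. The upstream side held 7467 of the 11444 (65.2%, interval 64.4% to 66.1%), but it also held 62.9% of the eligible sequence, since the downstream side of most starts is gene body. Eligible sequence here is all intergenic sequence 1 to 10 kb from a start, 353 Mb or 13.3% of the known bases of the genome. Counted by midpoint, for which 11719 regions lay in eligible sequence, there were 34.4 regions per Mb of eligible sequence upstream (33.6 to 35.1) and 31.1 downstream (30.2 to 32.1). These pool all types of start, and at coding starts the order was the reverse. Near coding starts with a region within 1 kb there were 57.9 per Mb upstream (55.8 to 60.1) and 81.2 downstream (73.9 to 89.0), and near those without one 28.0 (26.5 to 29.7) and 40.5 (37.9 to 43.2). Levels on the sides were close, with medians of 1.99 upstream and 1.97 downstream, and of 3.25 and 3.20 per kb. On the upstream side the median level per kb declined with distance, from 3.38 at 1 to 2 kb (1049 regions) to 3.36, 3.32, 3.19 and 3.14 in the bands ending at 3, 5, 7 and 10 kb. On the downstream side it was 3.16 at 1 to 2 kb (352 regions) and between 3.19 and 3.22 beyond. When regions of the top 10% and those within 5 kb of one were left out, the upstream medians per kb were 3.22, 3.20, 3.22, 3.17 and 3.11, a smaller decline. This cut caps the level itself, which can alone flatten a decline, and the part of the distance of 5 kb was not tested.

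By the type of the nearest start, 5342 regions (46.7%) were nearest a protein-coding start, 2490 (21.8%) a pseudogene start, 2118 (18.5%) a long noncoding RNA (lncRNA) start and 1045 (9.13%) a small RNA start. The upstream share was 74.5% at coding starts (73.3% to 75.7%), below the 76.4% of their eligible sequence that was upstream, and 44.8% at small RNA starts (41.8% to 47.8%), below 49.2%. It was 69.9% against 70.0% at lncRNA starts and 53.1% against 52.3% at pseudogene starts, where the intervals held the share of sequence. Eligible sequence was most densely filled near starts that were themselves accessible. Near coding starts with a region within 1 kb there were 60.3 regions per Mb (58.2 to 62.4), and near coding starts without one 32.3 (31.0 to 33.7). The same contrast was 79.3 against 31.0 at lncRNA starts, 74.7 against 17.0 at pseudogene starts and 71.6 against 28.1 at small RNA starts. Of regions nearest a coding start, 59.4% had an accessible one, against 54.3% of all coding starts.

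Levels also moved with the accessible start. The 3174 regions nearest an accessible coding start had a median level of 2.17 and a median of 3.41 per kb, and the 2168 nearest a coding start without a region had 1.88 and 3.21. Away from the strongest regions by more than 5 kb, and leaving out those of the top 10% themselves, the medians came closer together, at 1.95 and 1.84 for the level and 3.25 and 3.17 per kb. Leaving out the top 10% caps the level itself and can alone bring medians together, so the part of distance was not tested. Upstream of accessible coding starts, the density was high at 1 to 2 kb (interval 54.6 to 65.7 per Mb), then 46.2 per Mb at 2 to 3 kb, 38.5 at 3 to 4 kb and 44.5 (39.2 to 50.3) at 4 to 5 kb, then 68.6 (61.7 to 76.1) at 5 to 6 kb and 76.4 at 6 to 7 kb, so that it rose across 5 kb around accessible starts as well, although the interval of the first bin overlaps that at 5 to 6 kb. Upstream of coding starts without a region it was 31.6 (27.0 to 36.8) at 4 to 5 kb and 23.0 (18.9 to 27.8) at 5 to 6 kb, with overlapping intervals.

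**Figure D3:**
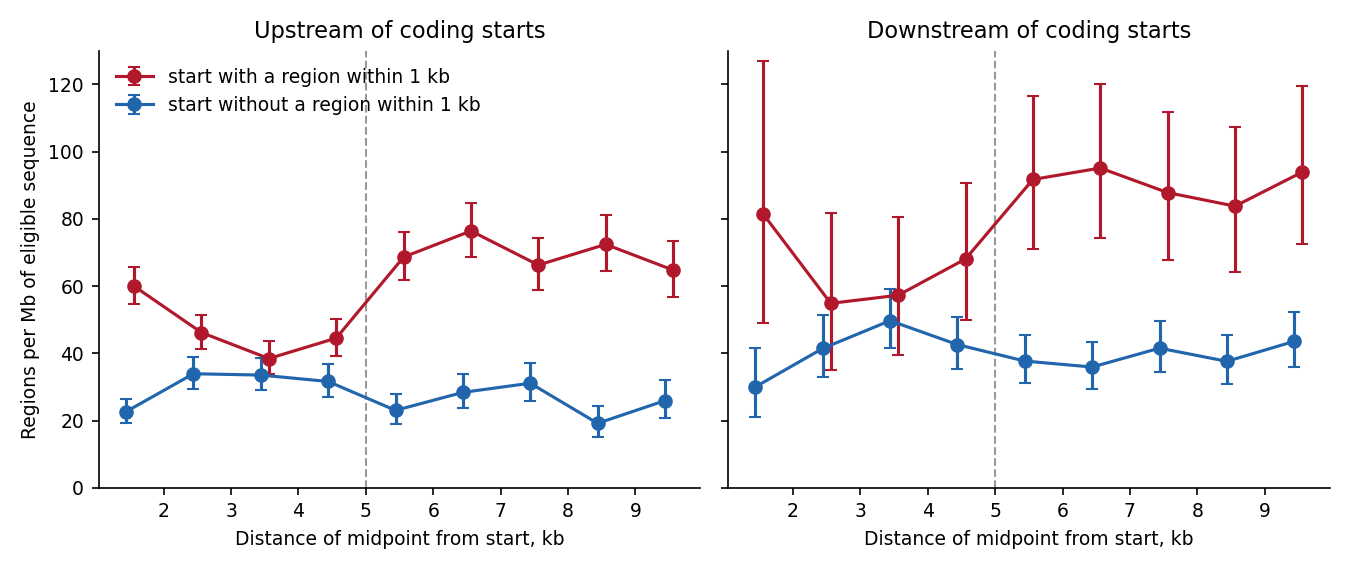
Midpoints of proximal intergenic regions per Mb of eligible sequence, by distance in kb upstream (left) and downstream (right) of the nearest coding start, for starts with (red) and without (blue) a region within 1 kb, with exact Poisson intervals. Upstream of accessible starts the density rises from 44.5 to 68.6 per Mb across the dashed line at 5 kb. Few midpoints lie in the downstream bins nearest an accessible start, hence the wide intervals there.

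A protein-coding start lay within 10 kb of 6266 regions (54.8%), and 4614 of these (73.6%) were upstream of it. They belonged to 4560 of 21938 coding genes (20.8%, interval 20.3% to 21.3%). The share was 24.9% among the 14058 coding genes with a region at a start, termed a promoter region, and 13.5% among the 7880 without. Most genes had a single proximal intergenic region: 3267 had 1, 980 had 2, 233 had 3 and 80 had 4 or more. The gene's promoter was accessible for 77.3% of the 6266. By levels not divided by width, the gene's highest promoter region was usually the stronger in those 4841, with a median level of 4.99 against 2.15. In 633 of them (13.1%) the intergenic region was the higher, and 524 of these lay beside the lowest 25% of promoter levels, as a split by one side of the comparison brings with it. Across the 4841 regions, the level and that of the gene's highest promoter region were weakly related (Pearson r of 0.11, Spearman rho of 0.09). These points share their libraries and genes recur among them, so this is given as a description only, and the part of the step at 5 kb in it was not tested.

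Cdc42ep1, which encodes an effector of the Cdc42 GTPase, and Prkcd, the gene of protein kinase C delta, had the most, with 6 each. All 6 at Cdc42ep1 lay upstream, from 2064 to 9371 bp, with levels from 2.02 to 5.27. At Prkcd 3 were upstream and 3 downstream, with levels from 1.71 to 4.25. Cirbp, which encodes a cold-inducible RNA-binding protein, had 5, all upstream, with the highest summed signal of these genes and levels from 3.54 to 6.07. Trim8, a ubiquitin ligase gene, had 5 with levels from 1.84 to 5.63, and Id3, the gene of an inhibitor of basic helix-loop-helix factors, had 5 with levels from 2.21 to 5.02. Promoter regions of all 5 genes were strong, between 5.63 and 6.54 log2 CPM. Others with 5 included Id1, a relative of Id3, and Spp1, the osteopontin gene, both named after their values were seen.

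The highest level, 7.15 log2 CPM, belonged to a region of 2489 bp on chromosome 5 (142821425 to 142823913), 3763 bp upstream of Tnrc18. The next, at 7.13, was 1404 bp upstream of Nr4a3 (chromosome 4, 48042746 to 48043749) and, at 7.13 log2 CPM per kb, had the highest level per kb of all. Its central 200 bp had a GC content of 71.5% and held a GC box (GGGCGG) and at least 1 of the HRE cores shown above. Zfp869, a zinc finger gene on chromosome 8, followed with 6.80 at 5603 bp upstream, and Kdm6b, which encodes a histone H3 lysine 27 demethylase, with 6.71 at 3821 bp upstream (chromosome 11). The other 6 of the 10 strongest, at 6.44 to 6.57, had their nearest start at a noncoding gene or pseudogene, and their nearest coding start lay 24108 to 75760 bp away. By level per kb, 2 further regions reached the first 5: one 2573 bp downstream of the homeobox gene Dlx2, with a level of 6.11, and one 1158 bp upstream of Cpeb4, the gene of a translational regulator, with a level of 6.17 and 6.48 log2 CPM per kb. None of the 10 strongest held an AP-1 site in its central 200 bp, while that at Dlx2 did. Such a site was in 13.4% of all proximal intergenic regions and in 12.4% of their own top 10% by level, so its absence from 10 regions says little.

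Another annotation placed some of these regions at transcripts. Against RefSeq transcripts on the same assembly, 187 of the 11444 (1.63%) overlapped a curated transcript or lay within 1 kb of its start, and 1850 (16.2%) did so when predicted transcripts were counted as well. Those 1850 had a median level of 2.16, against 1.95 in the remaining 9594. CpG-rich regions were near a RefSeq start of either kind more often than all regions, in 34 of 167 (20.4%) against 550 of 11444 (4.81%). Among the strongest, the region at Zfp869 and that at Cpeb4 covered a curated transcript start of the same gene, and those at Tnrc18 and Kdm6b covered predicted ones. Of the 4 strongest regions, that at Nr4a3 alone covered no RefSeq start, so the other 3 are promoter regions in that annotation. Of the 11444 regions, 40 (0.35%) overlapped one of 1019 enhancers annotated by RefSeq, against 358 of the whole list (0.377%).

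Genes that respond to HIF often had a proximal intergenic region. Of 42 listed HIF target genes, 25 (59.5%, interval 44.5% to 73.0%) had at least 1, against 20.8% of all coding genes and 24.9% of coding genes with a promoter region. Among the 40 with a promoter region, 24 had one. The lists were drawn up with earlier results of these data known, and no test was made of them. The 44 regions at HIF targets had levels from 0.10 to 5.34 with a median of 2.36, beside 2.06 for all regions linked to coding genes, and medians of 3.59 and 3.32 per kb. Ldha, which encodes the lactate dehydrogenase that ends anaerobic glycolysis, had the strongest, at 5.34 and 4.64 per kb, 1744 bp upstream. Bnip3 had a region at 4.98 (5.09 per kb) 9540 bp upstream with HRE cores, printed above. The region at Bhlhe40, the gene of a transcriptional repressor, was at 4.91 (4.37 per kb), 4521 bp downstream. Slc2a1, the glucose transporter gene, had 3, all upstream, of which the lowest was at 2.37. Vegfa, the main angiogenic factor, had 3 between 1.58 and 3.66, of which the strongest, 4047 bp upstream, held both an AP-1 site and an HRE core. HRE cores stood in the central 200 bp of 11 of the 44 regions (interval 14.6% to 39.4%) and AP-1 sites in 7 (7.93% to 29.4%), near the 20.8% and 12.9% of all regions linked to coding genes. Regions at other genes of glycolysis and pyruvate control spanned most of the range, from 3.24 and 2.11 at Eno1 (enolase) and 3.22 at Pkm (pyruvate kinase) to 1.57, 0.56 and 0.55 at Pgam1, 1.13 at Hk1, 0.85 and 0.10 at Hk2 and 0.69 at Pdk1.

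Among 16 genes of oxygen sensing, 4 had such a region (25.0%, 10.2% to 49.5%), about the share of all coding genes with a promoter region. Rbx1, which encodes a subunit of the ubiquitin ligase that degrades HIF, had one at 3.75 (3.38 per kb) 5594 bp downstream of its start. Egln1, the gene of the prolyl hydroxylase PHD2, had one at 3.65 (3.77 per kb) 5170 bp upstream, with an AP-1 site. Egln3, the gene of PHD3 and itself a HIF target, had one at 1.97 just beyond the inner limit, 1117 bp upstream, beside a promoter region at 2.42. Epas1, the HIF-2 alpha gene, had one at 0.84.

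Bone matrix and mineralisation genes had 30 regions at 12 of 30 genes (interval 24.6% to 57.7%), with a median level of 2.61 and a median level per kb of 3.61. Sparc, which encodes osteonectin, had the strongest, at 5.83 (5.82 per kb) 4718 bp upstream, above its promoter region at 5.47. Sparc had 3 more, from 1.82 to 4.37. Col1a1 had 3 upstream regions, at 5.46 (4.83 per kb), 3.93 and 3.40, with its promoter region at 4.93, and the second, 2192 bp upstream and shown above, and the third, 1307 bp upstream, held HRE cores. Those at 5.46 and 3.93 overlapped a predicted RefSeq transcript, and that at 3.93 lay 584 bp from a predicted start. Col1a2, the partner chain, had 5 regions from 0.73 to 2.51. Bgn, the biglycan gene, had 4 between 2.48 and 4.21, each above its promoter region at 2.42. Spp1 had 5 between 0.41 and 3.07, and Postn, the periostin gene, had 3 between 1.83 and 3.79 without a promoter region. Sost, the sclerostin gene of osteocytes, had no promoter region either and a single intergenic one at 2.21, 1817 bp upstream.

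Osteogenic transcription factor genes had 20 regions at 9 of 26 genes (34.6%, 19.4% to 53.8%). Sp7 had the strongest, at 6.05 (5.18 per kb) and 1834 bp wide, 9372 bp upstream of the gene and above its promoter region at 4.06. The nearest start of any kind was that of a small nuclear RNA. It had 2 others, at 2.41 and 2.29. Snai1, a mesenchymal repressor gene, had one at 5.46 (5.11 per kb) 5016 bp downstream, and Dlx3, a homeobox gene of osteoblasts, had 4 from 2.01 to 4.47. HRE cores were in 7 of the 20 (interval 18.1% to 56.7%, beside 20.8% of all regions linked to coding genes), among them the strongest region of each of Sp7, Snai1 and Dlx3 but no other region of these genes. The central 200 bp of those strongest regions had a GC content of 60.5%, 61% and 68%, and that of the other regions of these genes was 54.5% to 68%. At 60 to 80% GC, 35.7% of proximal intergenic regions held an HRE core. Among the other lists, HRE cores were in 5 of the 30 regions at bone matrix genes, 5 of 13 at AP-1 and stress factor genes, 4 of 11 at osteoclast control and cytokine genes, 3 of 14 at TEAD and YAP pathway genes, 1 of 11 at iron handling genes and none of the 4 at oxygen sensing genes, and each of these intervals also held 20.8%. Runx2, the master gene of the lineage, had none.

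Osteoclast control and cytokine genes had 11 regions at 6 of 18 genes (33.3%, 16.3% to 56.3%). The highest level, 3.66 (3.46 per kb), was 5697 bp upstream of Lif, a cytokine of the interleukin 6 family. The next was 9759 bp downstream of Csf1, the macrophage colony-stimulating factor gene, at 3.24 (4.63 per kb), followed by 2.80 (3.92 per kb) 2206 bp downstream of the chemokine gene Ccl7. Tnfsf11, the RANKL gene, had none. Iron handling genes had 11 regions at 7 of 18 genes (38.9%, 20.3% to 61.4%). Hmox1 had 4, at 4.86 (4.67 per kb), 4.57, 2.00 and 1.47, beside a promoter region at 4.75. The first of these, 3304 bp upstream, carried the AP-1 site shown above. Fth1 had a region at 4.14 (4.84 per kb) 1596 bp upstream, and Cp, the ceruloplasmin ferroxidase gene, one at 4.09.

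AP-1 and stress factor genes had 13 regions at 9 of 21 genes (42.9%, 24.5% to 63.5%), led by Fosl1, which encodes the AP-1 subunit Fra-1, at 5.13 (5.16 per kb) 2071 bp upstream and above its promoter region at 4.30. Klf4, a pluripotency and stress factor gene, had regions at 3.97 (4.12 per kb) and 3.63, and Mafk, a small Maf gene, one at 3.77 (5.04 per kb). Regions with an AP-1 site of their own were at Fosb, Junb and Atf3. These were 3 of the 13, with an interval of 8.18% to 50.3% that held the 12.9% of all regions linked to coding genes. Genes of the TEAD and YAP pathway had 14 regions at 9 of 18 genes (50.0%, 29.0% to 71.0%). Ccn1, a matricellular YAP target, had the strongest at 4.55 (4.31 per kb), Lats2, the kinase that restrains YAP, one at 4.31 (4.10 per kb), and Ankrd1, another YAP target, one at 3.59 (3.21 per kb) beside a promoter region at only 1.21.

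Marker genes checked the labelled cells. Of 18 mesenchymal and osteogenic markers, 13 had a promoter region, but Sost, Phex, Mepe, Thy1 and Pdpn had none. This share (72.2%, 49.1% to 87.5%) was near the 64.1% of all coding genes. Of 36 markers of other cell types, 12 had one (33.3%, 20.2% to 49.7%). Proximal intergenic regions were at 5 of the 18 (27.8%) and 8 of the 36 (22.2%), both close to the 20.8% of all coding genes. The strongest at the second list were at 4.87 upstream of Myh7, 3.01 downstream of Tnnt2 and 2.80 upstream of Krt8, genes of cardiac muscle and epithelium whose own promoters had no region. Across the 8 pathway lists, 80 of 188 genes (42.6%, 35.7% to 49.7%) had a proximal intergenic region, and 176 of the 188 had a promoter region.

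**Figure D4:**
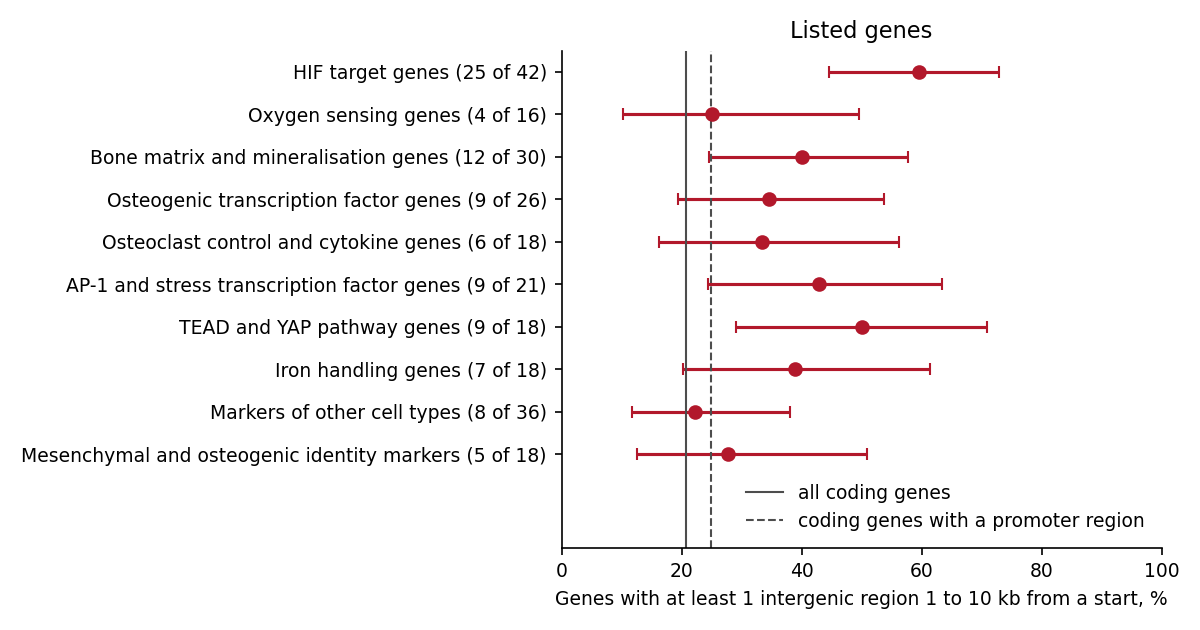
Share of the coding genes of each list with at least 1 proximal intergenic region (points, with 95% Wilson intervals and the counts beside the names), and the shares of all coding genes (solid line, 20.8%) and of coding genes with a promoter region (dashed line, 24.9%). HIF target genes stand highest at 59.5%, and markers of other cell types are at 22.2%.

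Over all base compositions, the AP-1, RUNX, TEAD and HRE shares were close to those at 10 to 100 kb and in introns, while GC boxes and CTCF motifs were more frequent. In the central 200 bp on either strand, 13.4% of proximal intergenic regions held an AP-1 site (12.8% to 14.0%), against 14.3% at 10 to 100 kb, 14.2% in introns and 6.05% at promoters, and in 12.1% of all regions. RUNX sites (TGTGGT) were present in 24.1%, 24.5%, 25.8% and 12.8% of these classes in the same order, and TEAD sites (GGAATG) in 15.2%, 15.3%, 15.8% and 9.22%. HRE cores were present in 20.3% (19.5% to 21.0%), against 18.8%, 19.5% and 39.4%, and in 24.2% of all regions. GC boxes were at 6.91% (6.46% to 7.39%), above the 4.85% at 10 to 100 kb (4.55% to 5.17%) and the 4.89% in introns (4.67% to 5.12%). They were far below the 35.1% of promoters. An ETS site (CCGGAAGT) was at 0.31%. The E-box CACGTG, which contains the HRE core ACGTG, was in 2.84%. The HRE core share followed base composition. At a GC content of 40 to 50% it was 17.2% in proximal intergenic regions, 16.9% at 10 to 100 kb and 17.2% in introns, and at 50 to 60% it was 22.9%, 21.8% and 23.3%. In promoters, HRE cores were in 20.3% at 40 to 50% GC and 31.0% at 50 to 60%, and at 60 to 80%, where 10114 of the 21537 promoter regions lay, in 52.7% against 35.7% of proximal intergenic regions. AP-1 sites were in 8.93%, 13.4%, 8.46% and 2.00% of promoters at 30 to 40%, 40 to 50%, 50 to 60% and 60 to 80% GC, against 14.6%, 14.4%, 13.1% and 7.53% of proximal intergenic regions. At 10 to 100 kb the AP-1 share was 16.5% at 40 to 50% GC and 12.8% at 50 to 60%. In the CpG-rich regions HRE cores reached 56.3%, GC boxes 53.9% and AP-1 sites 3.59%. These regions were selected for GC and CpG content, and the HRE cores and the GC box contain a CpG while the AP-1 site does not, so the shares are not independent of that selection.

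CTCF motifs were more frequent than in introns or distant intergenic regions. A match to the CTCF core was in 5.01% of proximal intergenic regions (573 regions), 4.11% of those at 10 to 100 kb, 3.25% in introns, 5.13% in exons and 1.82% at promoters. The share stood above that at 10 to 100 kb at 50 to 60% GC, with 6.01% (5.38% to 6.70%) against 4.87% (4.40% to 5.40%). At 40 to 50% GC the intervals overlapped (4.51% against 3.97%), and at 60 to 80% the share was 2.95% against 3.13%. Regions with a CTCF match were narrow, with a median width of 322 bp against 415 bp without. Their median level was 1.94 with quartiles of 1.44 and 2.50, a tighter spread than the 1.19 and 2.95 of those without, and their median level per kb was 3.44 against 3.21. Only 0.52% of the lowest 10% of proximal intergenic regions by level and 1.31% of the top 10% held one. AP-1 sites were in 8.21% of the lowest and 12.4% of the top 10%, and the 1535 regions with an AP-1 site had a median level per kb of 3.33 against 3.21 without. By side, the CTCF share was 4.75% upstream and 5.48% downstream, and the AP-1 share 13.4% and 13.5%.

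**Figure D5:**
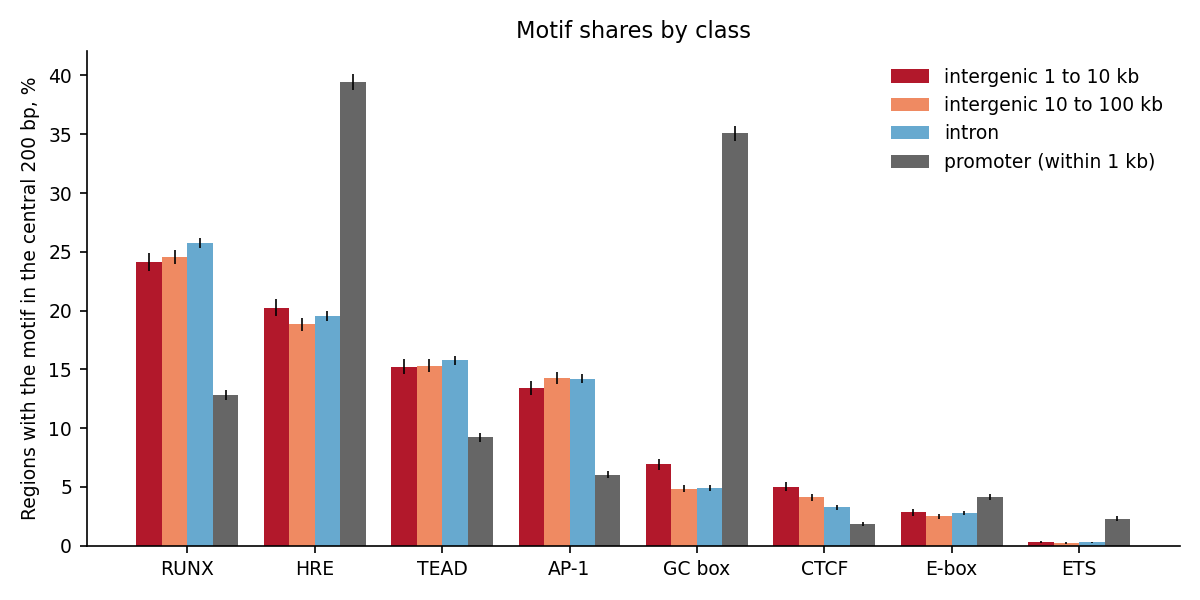
Share of regions with each motif in the central 200 bp, for proximal intergenic regions (dark red), intergenic regions 10 to 100 kb away (orange), introns (blue) and promoters (grey), with 95% Wilson intervals. For RUNX, TEAD and AP-1 the first 3 classes lie together above promoters, for HRE cores and GC boxes far below them, and for CTCF proximal intergenic regions are the highest of these 4 at 5.01%.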

How the data were processed

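ATAC-seq was available from 11 cultures in 4 groups. Per the study's methods and the submitters' processing notes, the authors trimmed reads, aligned them to mm10 with Bowtie2, removed duplicates with Picard 2.17.8, called peaks with MACS2 2.2.7.1, kept peaks by a Bonferroni adjusted cutoff, merged those of several samples, removed blacklisted regions, counted cuts with pyDNase, kept regions with at least 10 cuts in more than 1 sample and normalised by TMM in edgeR 3.24.3. Whether cut positions were offset for Tn5 is not given in the sources used here, and 1 library was removed by the authors for quality. The deposited value of each merged region was read as the authors' average log2 CPM over all samples. This is inferred: 460 values are below 0 and their powers of 2 sum to 1.01276e+06. The list holds no value per sample, so that the planned edgeR comparisons between groups were not run.

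Regions were placed against 132721 transcript starts of GENCODE vM21 by edge distance (ties to coding genes). Motifs were searched in the central 200 bp on both strands. Intervals for shares are Wilson intervals and those for densities exact Poisson intervals, at 95%. Named regions were the 10 strongest, the 5 strongest per kb, the 3 strongest per gene list, the regions of the 5 genes with the most, and the widest. The widest and the regions of 1 listed gene are not reported here. The set, gene lists and motifs were chosen with earlier results of these data known. The RefSeq comparison, the step at 5 kb and the GC bins were added after seeing the data. Classes, distances and motif search were tested on simulated data. Python 3.11.15 with numpy 2.4.6, pandas 2.3.3, scipy 1.17.1 and matplotlib 3.10.9 was used.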

Additional observations from a re-analysis of the deposited data

How the results depend on the processing

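No paired analysis was possible because values per sample were not given, and leaving out replicates and the count tests were not run for the same reason. With distances from midpoints, or with autosomes without chromosome 16, the 9 values (number of regions, upstream share, median level, median level per kb, share with a coding start within 10 kb, share of these with a promoter region, AP-1 share, HRE share, listed genes) stayed inside the intervals of the values reported or within 1.5 times the count.

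With protein-coding genes only, there were 7423 regions, 74.4% upstream, with median levels of 2.07 and 3.32 per kb, 100% with a coding start by construction, an AP-1 share of 12.8% and an HRE share of 21.5%. With 1 start per gene, 71.3% were upstream, 50.6% had a coding start within 10 kb and 68.6% of those a promoter region. Regions at least 500 bp wide numbered 4413, with 64.2% upstream, medians of 3.15 and 3.56 per kb, 53.4% with a coding start, 69.7% of those with a promoter region, shares of 12.2% (AP-1) and 21.3% (HRE), and 44 listed genes. An outer limit of 5 kb left 5483 regions, 68.4% upstream, with medians of 2.04 and 3.30 per kb, 56.2% with a coding start, 72.9% of those with a promoter region and an HRE share of 21.1%, and an inner limit of 2 kb gave 63.9% upstream. Searching the whole region raised the AP-1 share to 23.1% and the HRE share to 39.1%, TGANTCA gave 16.7%, and ACGTG alone 9.83%. Without regions at RefSeq transcripts, 64.1% were upstream, with medians of 1.95 and 3.21 per kb and an HRE share of 19.5%. Over 5 kb from the top 10% of levels the medians were 1.86 and 3.17 per kb. That limit also leaves out the top 10% themselves, which lowers a median level by construction. The causes were not tested beyond what each limit removes. These last 2 alternatives and those of the step were chosen after seeing the data: the counts at 5 to 6 kb were 1.88 times those at 4 to 5 kb around the top 10%, 2.32 times around the top 5%, 1.65 times around the top 20% and 1.85 times for introns. Since depth is unknown, how many weak regions deeper sequencing would add cannot be said.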
